A study of Mus musculus with 37 samples.

Results

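The comparison asked, gene by gene, whether the colon of mice without TIMP1 responded to chronic colitis as the wild-type colon did. The response to dextran sodium sulphate (DSS) was taken in each genotype as DSS minus control, and the genotype by DSS interaction was the response of the knockouts minus that of the wild types, in log2 units. It compared the group means of the 20 chronic arrays of the 37 arrays in the series, 5 in each of 4 groups, for all 19938 genes measured. Genes are described by the robust multi-array average (RMA) log2 signal on Affymetrix Mouse Gene 1.0 ST arrays, hybridized with material made from snap frozen colon. Each array has its own title code, taken here as 1 animal. An interaction of 1 means that DSS changed the gene 2-fold more upwards, or 2-fold less downwards, in the knockouts.

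The wild-type groups were C57BL/6J mice, either chronic controls or given DSS by mouth in the chronic protocol. The knockout groups were B6.129S4-Timp1tm1Pds/J mice, which carry a targeted allele of Timp1 in every cell, with the same treatments. The labels give no age, DSS dose or duration, and do not say whether the wild types were littermates of the knockouts. TIMP1 is a secreted inhibitor of matrix metalloproteinases, the enzymes that cut collagen and other matrix proteins and release growth factors and cytokines from the cell surface. It also acts as a ligand on cells. DSS damages the colonic epithelium, so that bacteria reach the mucosa, neutrophils and plasma cells enter the tissue, and repeated damage can leave scar-like matrix.

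The title codes, read here as animal numbers, begin with 11 or 14 in the chronic arrays. The arrays were grouped by these numbers as series, and the labels do not say what the numbers stand for. All 5 wild-type DSS mice and wild-type controls 1 to 3 were of series 11, and all 10 knockouts and wild-type controls 4 and 5 were of series 14. Genotype and series can therefore be told apart only through the 2 wild-type controls of series 14, and no wild-type mouse of series 14 received DSS. With the series as a term of the model, the interaction equals the knockout response within series 14 minus the wild-type response within series 11.

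The markers of colon tissue were present. The colonocyte markers Car1, Slc26a3, Aqp8 and Cdx2, the goblet cell markers Muc2, Clca1 and Zg16, and the smooth muscle markers Myh11, Des and Actg2 lay above the median of all signals on each of the 20 arrays. The squamous markers Krt5, Trp63 and Dsg3, the pancreatic markers Cpa1 and Cela2a and the ileal and jejunal markers Fabp6 and Lct lay below it on all 20. Not every marker of another tissue was low. The skeletal muscle markers Ckm and Acta1 lay above the median on all 20 arrays and Myh4 on 0, squamous Krt14 on 4, and the adipocyte markers Adipoq, Plin1 and Cidec on 5, 9 and 13. Of the pancreatic list, Cela1 read 8.35 to 10.91 and Clps 9.64 to 11.53. The small intestine markers Alpi and Fabp2, chosen with Fabp6 and Lct, were not low throughout. Alpi read 6.96 to 7.52 in wild-type controls and reached 10.89 in wild-type DSS and 10.96 in knockout DSS. Fabp2 read 7.6 to 7.96 in the wild-type controls of series 11 and 9.9 to 10.34 in those of series 14. The part of these tissues in the results was not tested. Array medians ran from 7.67 to 7.76 over the 37 arrays, and the mean correlation of a chronic array with its own group from 0.982 to 0.994. The first 2 principal components of the chronic arrays held 37% and 18.2% of the variance. Knockout control 2 stood at -25.7 on the first, among the wild-type controls at -28.3 to -17.7 and away from the other 4 knockout controls at -10.7 to -4.0. Wild-type DSS 3 stood at 38.8 on the second component, against -5.4 to 19.8 for the other 4 arrays of its group. Each group mean rests on 5 arrays. The spread of each gene, from which precision was computed, was estimated over all 37 arrays, the acute ones included.

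Timp1 itself was the check of the labels. Its signal was 7.28, 7.09, 7.07, 6.99 and 7.21 in the wild-type controls and 9.27, 7.93, 8.91, 8.72 and 7.2 in wild-type DSS. It was 7.03, 6.84, 6.95, 7.46 and 7.43 in the knockout controls and 7.30, 7.10, 7.01, 6.83 and 6.89 in knockout DSS. Only 4 wild-type DSS arrays rose above the range of the other groups, and wild-type DSS 5 lay within the range of the wild-type controls. The DSS effect was 1.28 ± 0.34 in wild types (± standard error, SE; adjusted p = 0.01) and -0.11 ± 0.34 in knockouts (adjusted p = 0.881). The interaction of -1.39 ± 0.48 did not pass (limma with Benjamini-Hochberg adjustment, adjusted p = 0.157, n = 5 a group). The position of the probes relative to the altered part of the allele is not given in the sources used here, and in controls the genotypes overlapped.

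The interaction was called for 84 genes at an adjusted p under 0.05, 0.421% of the genes tested. In 54 of them (0.271%) the knockout response lay above that of the wild types, and in 30 (0.15%) below it. An unadjusted p under 0.05 was reached by 3022 genes, 15.2% of those tested. Called interactions were mostly small: their sizes ran from 0.32 to 3.19, and 4 of 84 reached 1. Another 117 genes reached 1 without being called.

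Among the 84 called genes, the response had opposite signs in the 2 genotypes in 72. It had 1 sign and was larger in wild types in 8 and larger in knockouts in 4. Over all genes tested, the signs were opposite in 7664 of 19938. Both responses were called, in opposite directions, in 12 of the 84 genes, while 53 had a called wild-type response and 45 a called knockout response. The difference between genotypes was larger under DSS than in controls in 68 of 84. It was called under DSS in 59 of the 84, against 2.48% of all genes, and in controls in 5, against 0.1% of all genes. These counts use the same contrast arms as the interaction and describe it.

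The 54 genes with an interaction above 0 had median responses of -0.31 in wild types and 0.25 in knockouts, and the 30 below 0 of 0.22 and -0.25. Symbols that begin with Zfp, most of them of zinc finger proteins, made up 7 of the 54 (13.0%), against 2.83% of all genes with an interaction above 0. The zinc finger genes belong to a large family with closely similar copies, and signal of neighbours on the same probes cannot be told apart here. This grouping by name was made after the values were seen.

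Guf1, a GTPase of mitochondrial translation, held its call most often of the named genes above 0. Its signal was 8.97, 9.03, 9.0, 9.10 and 8.98 in wild-type controls and 8.87, 8.67, 8.22, 8.77 and 8.58 in wild-type DSS. It was 8.89, 9.10, 8.63, 8.57 and 8.76 in knockout controls and 9.07, 9.10, 9.49, 9.49 and 9.32 in knockout DSS. Every wild-type DSS array lay below every wild-type control, while in knockouts only control 2, at 9.10, reached into the DSS range. Guf1 fell by 0.39 in wild types (SE 0.12, adjusted p = 0.0214) and rose by 0.50 in knockouts (adjusted p = 0.00746). The interaction was 0.90 ± 0.17 (limma, adjusted p = 0.0194), and it was called in 18 of the 20 fits that left out 1 array.

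Clk1 encodes a kinase that phosphorylates SR splicing factors. Its signal was 10.26, 10.09, 10.34, 10.38 and 10.18 in wild-type controls and 9.73, 9.62, 9.45, 9.86 and 9.93 in wild-type DSS. In knockouts it was 10.19, 10.28, 10.03, 10.23 and 10.07 without and 10.36, 9.97, 10.57, 10.43 and 10.66 with DSS. The wild-type groups did not overlap, while knockout DSS 2 lay below all 5 of its controls. Clk1 fell in wild types (-0.53 ± 0.11, adjusted p = 0.000782), its knockout difference of 0.24 did not pass (adjusted p = 0.169), and the interaction was 0.77 ± 0.15 (limma, adjusted p = 0.0252).

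Snrpe, a core Sm protein of the spliceosome, took its interaction from the knockouts. Its signal was 8.79 to 9.13 in wild-type controls, 8.81 to 9.38 in wild-type DSS and 8.77 to 9.02 in knockout controls. The knockout DSS arrays read 9.40, 9.99, 10.21, 9.76 and 9.65, above all 15 others. The knockout rise was 0.92 ± 0.11 (adjusted p = 5.91e-06), the wild-type difference 0.14 (adjusted p = 0.459), and the interaction 0.78 ± 0.16 (limma, adjusted p = 0.0305).

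Slc25a36, a mitochondrial carrier of pyrimidine nucleotides, and Ctns, the lysosomal cystine transporter, showed the opposite layout, a fall that was deeper in wild types. Slc25a36 went from 11.67 ± 0.08 (SD, n = 5) to 10.43 ± 0.09 in wild types and from 11.19 ± 0.28 to 10.89 ± 0.36 in knockouts, with an interaction of 0.94 ± 0.21 (limma, adjusted p = 0.0348). Ctns fell by 1.09 in wild types (adjusted p = 3.74e-07) and by 0.37 in knockouts (adjusted p = 0.0481). Its genotypes already differed in controls, where knockouts were lower by 0.64 (adjusted p = 0.0199), with knockout control 2 at 9.77 and the other 4 at 9.12 to 9.21. Aspa, an enzyme that splits N-acetylaspartate, fell in wild types by 0.86 (adjusted p = 1.92e-05) with a knockout difference of -0.10 (adjusted p = 0.677).

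The zinc finger genes named by size were Zfp942 (interaction 1.04), Zfp935 (0.87), Zfp944 (0.79), Zfp62 (0.76) and Zfp825 (0.71). For Zfp942 the knockout DSS arrays read 8.10, 8.44, 8.86, 9.20 and 8.91, and the wild-type DSS arrays 7.94, 8.00, 7.33, 7.92 and 7.96. The DSS groups did not overlap, whereas in controls the ranges of 8.05 to 8.51 in wild types and 7.96 to 8.28 in knockouts did. Zfp942 fell in wild types (-0.47 ± 0.16, adjusted p = 0.0436) and rose in knockouts (0.57 ± 0.16, adjusted p = 0.0247), and the interaction had an SE of 0.23 (limma, adjusted p = 0.0338). Zfp944 changed in both genotypes too, by -0.37 and 0.41. In Zfp935 and Zfp62 the knockout rise was called and the wild-type difference was not, and in Zfp825 the reverse held.

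The remaining named genes above 0 were Rbm12b2, an RNA-binding protein (0.93), ND3, a complex I subunit encoded in mitochondrial DNA (0.75), Aim2, a sensor of DNA in the cytosol (0.69), and Cd46, a regulator of complement (0.67). Their adjusted p lay between 0.0428 and 0.049. Of the knockout responses, those of Rbm12b2 (0.54), ND3 (0.45) and Aim2 (0.45) were called, and in wild types Cd46 fell by 0.45. The Cd46 signals were low, between 5.9 and 6.87 over the chronic arrays, against array medians of 7.67 or more. The Aim2 signal was 9.75 to 10.03 in wild-type controls and 9.53 to 9.67 in wild-type DSS, and 9.37 to 9.82 and 9.85 to 10.23 in the knockouts, so that DSS separated the arrays in opposite directions. The rule for names skipped 5 genes above 0, which had no established symbol or were small RNA genes. The largest interaction among them was 2.01.

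Below 0, the called genes with the most stable call were Klhl9 and Fkbp11. Klhl9, an adaptor of a cullin 3 ubiquitin ligase, had the lowest adjusted p of all genes. Its signal was 10.19, 10.22, 10.01, 10.10 and 10.14 in wild-type controls and 10.13, 10.12, 10.35, 10.15 and 10.14 in wild-type DSS. It was 10.16, 10.18, 10.34, 10.22 and 10.27 in knockout controls and 9.96, 9.72, 9.73, 9.78 and 9.74 in knockout DSS. Knockout DSS lay below all 15 other arrays. Klhl9 fell in knockouts (-0.45 ± 0.05, adjusted p = 5.73e-06) with a wild-type difference of 0.04 (adjusted p = 0.682), and the interaction was -0.49 ± 0.08 (limma, adjusted p = 0.00539).

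Fkbp11 encodes a prolyl isomerase of the endoplasmic reticulum (ER) that is abundant in antibody-secreting cells. Its signal was 6.86, 6.94, 6.93, 7.08 and 7.10 in wild-type controls and 7.61, 7.66, 7.69, 7.68 and 7.38 in wild-type DSS. In knockout controls it was 7.56, 7.14, 7.50, 7.55 and 7.50, and in knockout DSS 7.50, 7.40, 7.22, 7.08 and 7.34. The wild-type groups did not overlap, and all 5 knockout controls already stood above every wild-type control. Fkbp11 rose by 0.62 ± 0.09 in wild types (adjusted p = 2.68e-05), differed by -0.14 in knockouts (adjusted p = 0.377) and was higher in knockout than in wild-type controls by 0.47 (adjusted p = 0.0277). Its interaction was -0.77 ± 0.13 (limma, adjusted p = 0.0101), and it was called in every fit that left out 1 array.

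Igkv6-20, a variable segment of the immunoglobulin kappa light chain, had the largest interaction of all genes, -3.19 ± 0.74 (limma, adjusted p = 0.0449). Wild-type arrays read 7.54, 7.80, 7.46, 8.34 and 8.2 without and 9.84, 11.20, 12.62, 10.18 and 9.10 with DSS. Knockout arrays read 9.22, 8.85, 8.42, 9.02 and 9.56 without and 8.32, 8.51, 7.96, 9.55 and 8.40 with DSS. The wild-type groups did not overlap and the knockout groups did, with the highest signal in wild-type DSS 3. The wild-type rise was 2.72 ± 0.52 (adjusted p = 0.000535) and the knockout difference -0.47 (adjusted p = 0.637). Kappa segments resemble each other, so the signal may be shared with others of the family. The interaction was called in 7 of the 20 fits that left out 1 array.

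2 called genes below 0 act in the matrix. Mmp28, the matrix metalloproteinase epilysin, read 8.45, 8.28, 8.6, 8.49 and 8.68 in wild-type controls and 9.62, 9.47, 9.59, 9.61 and 9.48 in wild-type DSS. It read 9.04, 8.48, 8.95, 8.96 and 9.19 in knockout controls and 9.23, 9.35, 9.13, 9.05 and 9.19 in knockout DSS. The wild-type rise of 1.06 ± 0.13 (adjusted p = 2.31e-06) was uniform over arrays, unlike that of Timp1, and the interaction was -0.79 ± 0.19 (limma, adjusted p = 0.0451). Ltbp2, a latent TGF-beta binding protein of elastic fibres, rose by 0.87 ± 0.13 in wild types (adjusted p = 2.01e-05). Its knockout difference was 0.11 and its interaction -0.77 ± 0.18 (limma, adjusted p = 0.0455). Wild-type DSS read 8.74, 7.82, 8.88, 8.6 and 8.09, against 7.30 to 7.91 over all 10 knockout arrays. Both calls were held in 5 of the 20 fits that left out 1 array.

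Uqcc2, an assembly factor of respiratory complex III, and Tomm5, a subunit of the mitochondrial protein import pore, took their interactions of -0.67 and -0.60 from a called fall in knockouts. Tomm5 read 9.70 to 9.98 in wild-type controls, 9.75 to 9.96 in wild-type DSS and 9.89 to 10.13 in knockout controls, and 9.68, 9.57, 9.38, 9.29 and 9.23 in knockout DSS. Zfp42, a pluripotency-associated zinc finger protein, fell in knockouts by 0.43 as well, from a level that was higher than in wild-type controls by 0.38 (adjusted p = 0.0408). The Zfp42 signals were low, between 5.96 and 6.63 over the chronic arrays, against array medians of 7.67 or more. Arpc5l, a subunit of the actin-nucleating Arp2/3 complex (-0.51), Slc6a9, a glycine transporter (-0.61), Hs3st3b1, a heparan sulfate sulfotransferase (-0.53), and Dmrta1, a DM-domain transcription factor (-1.33), rose in wild types and had no called knockout response. Sh3bp4, a regulator of endocytosis (-0.56), rose in wild types by 0.26 and fell in knockouts by 0.30. Tcf3, the E protein E2A (-0.47), rose in wild types by 0.24, with a knockout difference of -0.23 (adjusted p = 0.0502).

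**Figure D1:**
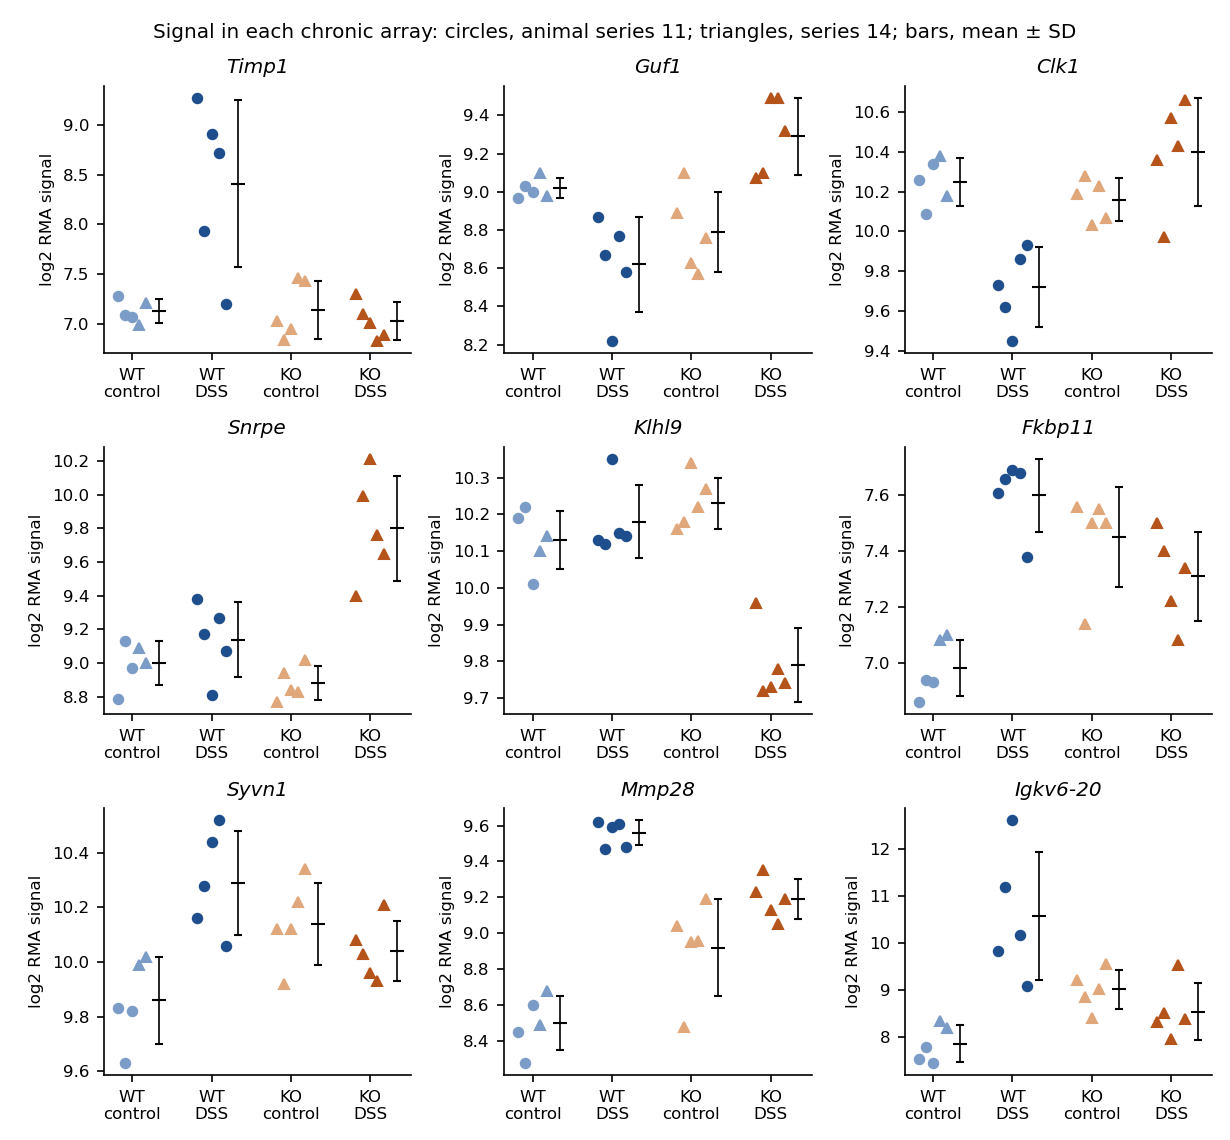
The log2 RMA signal of 9 genes in each chronic array, by group (WT, wild type; KO, TIMP1 knockout). Circles are animals of series 11, triangles of series 14, and the bars give the mean ± SD of the 5 arrays. Timp1 is high in 4 wild-type DSS arrays only, Snrpe is above and Klhl9 below all other arrays in knockout DSS, and Fkbp11, Syvn1, Mmp28 and Igkv6-20 rose in wild types and had no called knockout response.

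The number of calls turned on single arrays. Without knockout DSS 3, 4 or 5 the interaction was called for 5, 5 and 6 genes, and without wild-type DSS 3 for 7. Without knockout control 2 it was called for 422 genes, and without knockout DSS 1 or 2 for 384 and 375. Leaving out knockout controls 1, 3, 4 and 5 gave 15, 10, 20 and 46 calls, wild-type controls 1 to 5 gave 71, 15, 24, 24 and 89, and wild-type DSS 1, 2, 4 and 5 gave 86, 34, 101 and 138. The median called gene held its call in 9 of these 20 fits, and 4 genes held it in all of them. These were Fkbp11, Klhl9, Ice2, a subunit of a complex for small nuclear RNA transcription (0.65 ± 0.11), and 1 gene without an established symbol. Ice2 was picked out after its values were seen. None of the 84 genes changed direction in any setting in which it was tested. The genes were called on these same arrays for interactions large against their spread. A change of sign could therefore hardly occur, and the kept directions are no separate evidence.

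**Figure D2:**
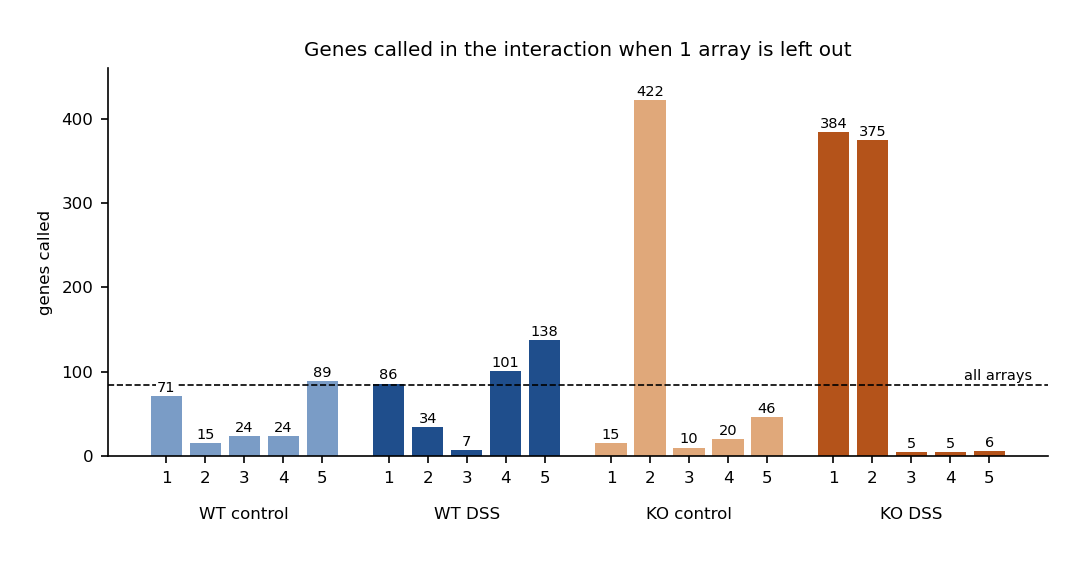
The bars give the number of genes called in the chronic interaction (adjusted p under 0.05) when the array named on the horizontal axis is left out, by group and replicate (WT, wild type; KO, TIMP1 knockout). The dashed line marks the 84 genes called with all arrays; the counts range from 5 without knockout DSS 3 or 4 to 422 without knockout control 2.

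The lists of genes by role, 42 in number and chosen with earlier results of these data known, held 3 called members, Mmp28, Ltbp2 and Ms4a2, and 0.421% of all genes were called. The background to their other counts is as follows. Over all genes, chronic DSS raised 5.79% and lowered 8.58% in wild types, and raised 2.47% and lowered 5.47% in knockouts. The median interaction over all genes was -0.04, and 57.9% of all genes were below 0. List medians ran from -1.18 to 0.35, and 30 of 42 were below 0.

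Among inhibitors of the matrix proteases, Timp4 fell in both genotypes (-1.33 in wild types, adjusted p = 0.000396; -0.78 in knockouts, adjusted p = 0.0487), and Reck, a membrane-bound inhibitor, fell in wild types (-0.48, adjusted p = 0.0409). The interactions of Timp2 (-0.11), Timp3 (0.13), Timp4 (0.55) and Reck (0.26) had adjusted p of 0.475 or more. Of 15 metalloproteinases, 7 rose and 0 fell in wild types, and 0 changed in knockouts (limma). Their median responses were 0.63 and 0.13, with a median interaction of -0.42, below 0 in 14 of 15, and 1 call, Mmp28.

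The metalloproteinases with the largest interactions were the stromelysins Mmp10 (-1.72 ± 0.77, adjusted p = 0.288) and Mmp3 (-1.64 ± 0.84, adjusted p = 0.354) and the collagenase Mmp13 (-1.48 ± 0.87, adjusted p = 0.426). In wild-type DSS, Mmp10 read 10.73, 8.35, 10.01, 9.87 and 7.74, and in knockout DSS 8.52, 7.51, 7.58, 7.09 and 7.63. All 10 controls lay between 7.00 and 7.44. Wild-type DSS 1, 3 and 4 thus stood apart from the other 2 arrays of their group. Of the plasminogen system, Plaur, the urokinase receptor, rose in wild types by 1.26 (adjusted p = 0.00025), with an interaction of -1.0 ± 0.32 (adjusted p = 0.13). Among ADAM and ADAMTS proteases, the largest interaction was that of Adamts4, which cleaves aggrecan (-0.87, adjusted p = 0.419), and of 16 genes 2 rose and 2 fell in wild types, and 1 rose and 1 fell in knockouts.

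Matrix and stromal lists had interaction medians below 0, and muscle above. Of 30 collagen and matrix genes, 5 rose and 1 fell in wild types, and 0 rose and 2 fell in knockouts, with medians of 0.19 and -0.08. Lox, which cross-links collagen, had an interaction of -1.36 (adjusted p = 0.301), and Col12a1, a fibril-associated collagen, of -1.14 (adjusted p = 0.127). Col8a1, a short-chain collagen, differed in layout. It read 8.79 to 8.90 in wild-type controls, and 10.12, 9.01, 9.97, 9.94 and 10.82 in knockout controls, with knockout control 2 next to the wild types. DSS lowered it in knockouts by 0.97 (adjusted p = 0.0058), with an interaction of -1.0 ± 0.31 (adjusted p = 0.112).

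Of 22 genes of fibroblasts and TGF-beta signalling, 5 rose and 1 fell in wild types and 0 changed in knockouts. Ccn1, a matricellular protein, had the largest interaction of them (-1.23, adjusted p = 0.247), and Ltbp2 was the 1 called. All 16 endothelial genes had an interaction below 0, with a median of -0.40 and 0 calls. Of the endothelial genes, 2 rose in wild types and 0 in knockouts. All 16 smooth muscle genes were above 0, with a median of 0.35 and 0 calls, and Casq2, calsequestrin, had the largest value (1.03, adjusted p = 0.22). The mean smooth muscle signal was lowest in wild-type DSS 3 (10.43). Without that array the median was 0.21. In whole tissue, fewer cells of a type and less RNA per cell cannot be told apart.

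The neutrophil list had the lowest median, -1.18, with all 17 measured genes below 0 and 0 called. In wild types 9 rose and 0 fell, and in knockouts 0 changed, with median responses of 1.19 and -0.02. Retnlg, a resistin-like protein of neutrophil granules, had the lowest adjusted p of the list, 0.157 (-1.72 ± 0.59). S100a8, a subunit of calprotectin, read 9.24, 6.6, 8.99, 9.07 and 6.51 in wild-type DSS and 7.38, 6.55, 6.15, 6.19 and 6.32 in knockout DSS, against 5.95 to 6.64 over the 10 controls. Wild-type DSS 1, 3 and 4 were high, as for Mmp10, while wild-type DSS 2 and 5 lay within the range of the controls. Lcn2, an iron-binding antimicrobial protein, followed the same split, at 11.86, 11.15 and 10.46 in arrays 1, 3 and 4 and 8.70 and 8.24 in arrays 2 and 5. Its interaction was -2.32 ± 0.92 (adjusted p = 0.221). The mean signal of the list was 8.39 to 8.6 in those 3 arrays, 6.91 and 7.09 in the other 2, and 6.51 to 7.39 over all 10 knockout arrays. Ly6g, a member of the list, had another layout and was high without DSS. It read 12.63 to 13.06 in wild-type controls and 10.33 to 13.05 in wild-type DSS. In knockouts it read 11.46 to 12.94 without and 7.5 to 12.83 with DSS. Its part in the list mean was not tested.

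The list of epithelial defence and acute phase products held 20 measured genes. Of these, 10 rose in wild types and 4 in knockouts, with medians of 1.56 and 0.24. The members that rose in both genotypes were Reg3g, Reg3b, Duox2 and Retnlb. Retnlb, a goblet cell product aimed at bacteria, rose by 4.48 ± 0.77 and 4.06 ± 0.77 (adjusted p = 0.000151 and 0.00161), and its interaction was -0.42 ± 1.09 (adjusted p = 0.891). Saa3, serum amyloid A, rose in wild types by 3.36 (adjusted p = 0.000377), with a knockout difference of 1.14 (adjusted p = 0.276) and an interaction of -2.22 ± 0.88 (adjusted p = 0.227). Hp, haptoglobin, rose in wild types by 2.08, with an interaction of -1.95 (adjusted p = 0.158).

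Of 35 cytokines and chemokines, 33 had an interaction below 0 and 0 were called. Il1b, interleukin 1 beta, read 10.42, 8.97, 10.25, 9.96 and 7.76 in wild-type DSS and 9.07, 7.46, 7.69, 7.25 and 8.04 in knockout DSS. Its interaction was -1.67 ± 0.73 (adjusted p = 0.269). Of 20 monocyte and macrophage genes, 5 rose and 1 fell in wild types and 0 changed in knockouts. Arg1, arginase 1, came closest to a call (-1.03 ± 0.32, adjusted p = 0.112). Of 14 complement genes, 3 rose in wild types and 2 in knockouts, with a median interaction of -0.17, or -0.08 without wild-type DSS 3.

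Plasma cell genes formed the next lowest list. Antibody-secreting cells carry a large ER, and their genes overlap in use with those of the unfolded protein response, in which chaperones and degradation factors are induced when unfolded proteins gather in the ER. All 12 plasma cell and immunoglobulin genes had an interaction below 0, with a median of -1.0 and 0 calls. In wild types 10 rose, and in knockouts 1 (Prdm1, the regulator BLIMP1), with median responses of 1.24 and 0.26. Ighm, the mu heavy chain, had the largest interaction (-2.10 ± 0.99, adjusted p = 0.314) and spread from 7.19 to 10.12 over the wild-type controls. Txndc5, an ER thioredoxin, had the lowest adjusted p of the list, 0.0817 (-0.65 ± 0.18). The mean signal of the list was 8.53 to 9.38 in wild-type controls, 9.96 to 11.12 in wild-type DSS, 9.06 to 9.72 in knockout controls and 9.34 to 10.42 in knockout DSS. Knockout control 2 was the lowest of its group. Without wild-type DSS 3 the median interaction was -0.72.

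Of 24 genes of the unfolded protein response, 14 rose and 0 fell in wild types, and 1 rose in knockouts (Pdia3, a disulfide isomerase). The median responses were 0.43 and 0.06, and 22 of 24 interactions were below 0, 0 of them called. Pdia6, a disulfide isomerase, came closest, at -0.64 ± 0.16 (limma, adjusted p = 0.0593). It read 10.11, 10.09, 10.10, 10.17 and 10.26 in wild-type controls and 10.74, 10.88, 10.86, 11.01 and 10.46 in wild-type DSS. It read 10.32, 10.19, 10.85, 10.76 and 10.55 in knockout controls and 10.46, 10.51, 10.58, 10.47 and 10.68 in knockout DSS. The wild-type groups did not overlap, and 3 of 5 knockout controls already reached the range of wild-type DSS. Sdf2l1, a cofactor of ER chaperones, had the largest interaction of the list (-0.89 ± 0.25, adjusted p = 0.0817), followed by Creld2, an ER protein induced by stress (-0.74 ± 0.24, adjusted p = 0.13). Hspa5, the chaperone BiP, had an interaction of -0.48 ± 0.19 (adjusted p = 0.235).

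Syvn1, which was not a member of that list, encodes HRD1, the ubiquitin ligase that marks misfolded ER proteins for degradation. It read 9.83, 9.63, 9.82, 9.99 and 10.02 in wild-type controls and 10.16, 10.28, 10.44, 10.52 and 10.06 in wild-type DSS. It read 10.12, 9.92, 10.12, 10.22 and 10.34 in knockout controls and 10.08, 10.03, 9.96, 9.93 and 10.21 in knockout DSS. The wild-type groups did not overlap, whereas the knockout groups overlapped over most of their range. Syvn1 rose in wild types (0.43 ± 0.09, adjusted p = 0.000765), and the interaction was called at -0.53 ± 0.12 (limma, adjusted p = 0.0428), in 6 of the 20 fits that left out 1 array.

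The promoters of Syvn1 and of 7 unfolded protein genes share a sequence, which is shown because Syvn1 and 6 of the 7 rose in wild types. The ER stress response element joins CCAAT to CCACG over a gap of 9 bases, and NF-Y and ATF6 are known to bind it. RefSeq promoters of build GRCm38.p6 were searched on both strands in the 250 bases before the gene start. The letters were found in 37 of 32851 promoters (0.113%). They were found in 7 of the 22 unfolded protein genes that had a promoter in the table, and in 1 of 72 called genes, Syvn1. The 22 genes had 22 promoters and the 72 genes 85. The element is named for the ER stress response, so its count in the unfolded protein list is a description and no test. The capitals mark the element with its gap, read 5′ to 3′ along the strand of the gene, and the element lies on the opposite strand, so that it reads as its reverse complement, in Calr, Creld2 and the nearer Hsp90b1 match. A match is a description of letters, and the data do not measure binding.
Syvn1, chr19:6046518-6046564, plus strand: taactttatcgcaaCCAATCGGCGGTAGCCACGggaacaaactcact
Hspa5, chr2:34772011-34772057, plus strand: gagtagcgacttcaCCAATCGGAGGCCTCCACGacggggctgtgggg
Pdia6, chr12:17266477-17266523, plus strand: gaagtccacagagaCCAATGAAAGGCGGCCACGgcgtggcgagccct
Creld2, chr15:88819506-88819552, plus strand: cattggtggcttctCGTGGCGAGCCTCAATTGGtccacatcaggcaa
Dnajc3, chr14:118937813-118937859, plus strand: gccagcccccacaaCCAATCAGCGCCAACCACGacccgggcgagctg
Calr, chr8:84847061-84847107, minus strand: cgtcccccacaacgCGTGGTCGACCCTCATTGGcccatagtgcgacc
Hsp90b1, farther match, chr10:86705624-86705670, minus strand: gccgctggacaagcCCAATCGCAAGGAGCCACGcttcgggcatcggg
Hsp90b1, nearer match, chr10:86705519-86705565, minus strand: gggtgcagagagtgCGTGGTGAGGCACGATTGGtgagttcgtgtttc
Canx, chr11:50325786-50325832, minus strand: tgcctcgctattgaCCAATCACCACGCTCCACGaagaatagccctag

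Set beside these sequences, the values of the genes were not uniform. In wild types, Creld2 (0.91), Pdia6 (0.65), Hspa5 (0.56), Dnajc3, a co-chaperone (0.56), Hsp90b1, the chaperone GRP94 (0.54), and Calr, calreticulin (0.31), rose, each with an adjusted p of 0.0116 or less. Canx, calnexin, did not pass (0.10, adjusted p = 0.387). The interactions of these 7 genes ran from -0.74 in Creld2 to 0.08 in Canx, and 0 were called. Fkbp11 and Sdf2l1 did not hold these letters in the bases searched.

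Of 19 T cell and cytotoxic genes, 14 rose in wild types and 3 in knockouts (Cd3e, Cd3g and Zap70), with medians of 0.65 and 0.32 and a median interaction of -0.24. Gzmb, granzyme B, had the largest interaction (-0.71 ± 0.55, adjusted p = 0.571). Of 18 B cell and follicle genes, 0 were called in either genotype, with median responses of 0.70 in wild types and 0.51 in knockouts. Their median interaction was -0.14, and 0.10 without wild-type DSS 3. Their mean signal ran from 6.97 to 8.37 in wild-type controls and from 7.67 to 9.39 in wild-type DSS, and from 7.18 to 7.43 and 7.31 to 8.67 in the knockouts.

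All 12 mast cell genes had an interaction below 0 (median -0.36). In wild types 8 rose, and in knockouts 2, the mucosal proteases Mcpt1 and Mcpt2. Mcpt2 rose by 3.03 and 2.27 (adjusted p = 3.94e-05 and 0.00325). Cpa3, carboxypeptidase A3, read 8.55, 8.17, 6.6, 7.79 and 6.66 in wild-type DSS, 6.55, 6.68, 6.57, 6.03 and 6.91 in knockout DSS and 5.77 to 6.2 over the 10 controls, with an interaction of -1.13 ± 0.35 (adjusted p = 0.111). The high arrays were wild-type DSS 1, 2 and 4, not the 3 that were high for neutrophil genes. Ms4a2, the beta chain of the IgE receptor, was the 1 member called (-0.39 ± 0.09, limma, adjusted p = 0.0428). Its signals lay between 5.38 and 5.87 on all 20 arrays, near the bottom of the scale.

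Interferon and antigen presentation genes differed little between the genotypes in their medians. Of 20 interferon-stimulated genes, 10 rose in wild types and 3 in knockouts, with medians of 0.59 and 0.45 and a median interaction of -0.11. Ifih1, the RNA sensor MDA5, ran against the list at 0.50 ± 0.14 (adjusted p = 0.0916). The median interactions were -0.13 for 15 interferon gamma genes, -0.10 for 10 MHC class I genes and -0.08 for 8 MHC class II genes. With 1 array left out they ran from -0.23 to -0.03, from -0.2 to -0.03 and from -0.26 to 0.12, the highest value of each without wild-type DSS 3. For the interferon-stimulated genes the range was -0.3 to 0.0. B2m, the light chain of MHC class I, rose in knockouts by 0.59 (adjusted p = 0.000213), with an interaction of 0.40 ± 0.13 (adjusted p = 0.136).

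Epithelial transport and detoxification genes had interaction medians above 0. Of 28 colonocyte transport genes, 2 rose and 7 fell in wild types, and 0 rose and 3 fell in knockouts, with medians of -0.48 and -0.19 and a median interaction of 0.26. Slc37a2, a phosphate-linked sugar phosphate exchanger, fell by 3.93 and 2.22 (adjusted p = 5.42e-06 and 0.00798). It read 10.76 to 12.08 in wild-type controls, 7.57 to 8.21 in wild-type DSS, 8.74 to 12.32 in knockout controls and 7.15 to 9.69 in knockout DSS, and its interaction was 1.71 ± 0.74 (adjusted p = 0.266). Without wild-type DSS 3, the median of the list was 0.05. Some members differed between the animal series among the wild-type controls. Slc9a3 read 8.39 to 9.37 in series 11 and 11.35 to 12.07 in series 14, and Aqp4 9.24 to 9.5 and 11.16 to 11.28. Other members overlapped, such as Car1 at 13.77 to 13.81 and 13.76 to 13.89. Of 32 xenobiotic genes, 2 rose and 7 fell in wild types and 0 rose and 3 fell in knockouts, with a median interaction of 0.27, or 0.13 without wild-type DSS 3. The cytochrome Cyp2d12 had the largest interaction (1.53, adjusted p = 0.254).

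The other epithelial and metabolic lists had 0 called members. Median interactions were -0.15 for goblet cells, 0.09 for crypt and Wnt genes, 0.02 for enteroendocrine cells, -0.26 for tuft cells, with 10 of 11 genes below 0, and 0.03 for tight junctions. They were 0.09 for oxidative phosphorylation, 0.21 for butyrate use and ketogenesis, -0.22 for cholesterol synthesis, -0.03 for glycolysis and hypoxia, and -0.07 for the cell cycle. The goblet median was -0.03 without wild-type DSS 2, and the cholesterol median -0.1 without knockout DSS 5. Lgr5, the crypt stem cell receptor, and Lrig1 fell in both genotypes. Among tight junction genes, Cldn15 and Cldn4 rose and Cldn1 and Cldn8 fell in wild types, and Cldn12 fell in knockouts.

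**Figure D3:**
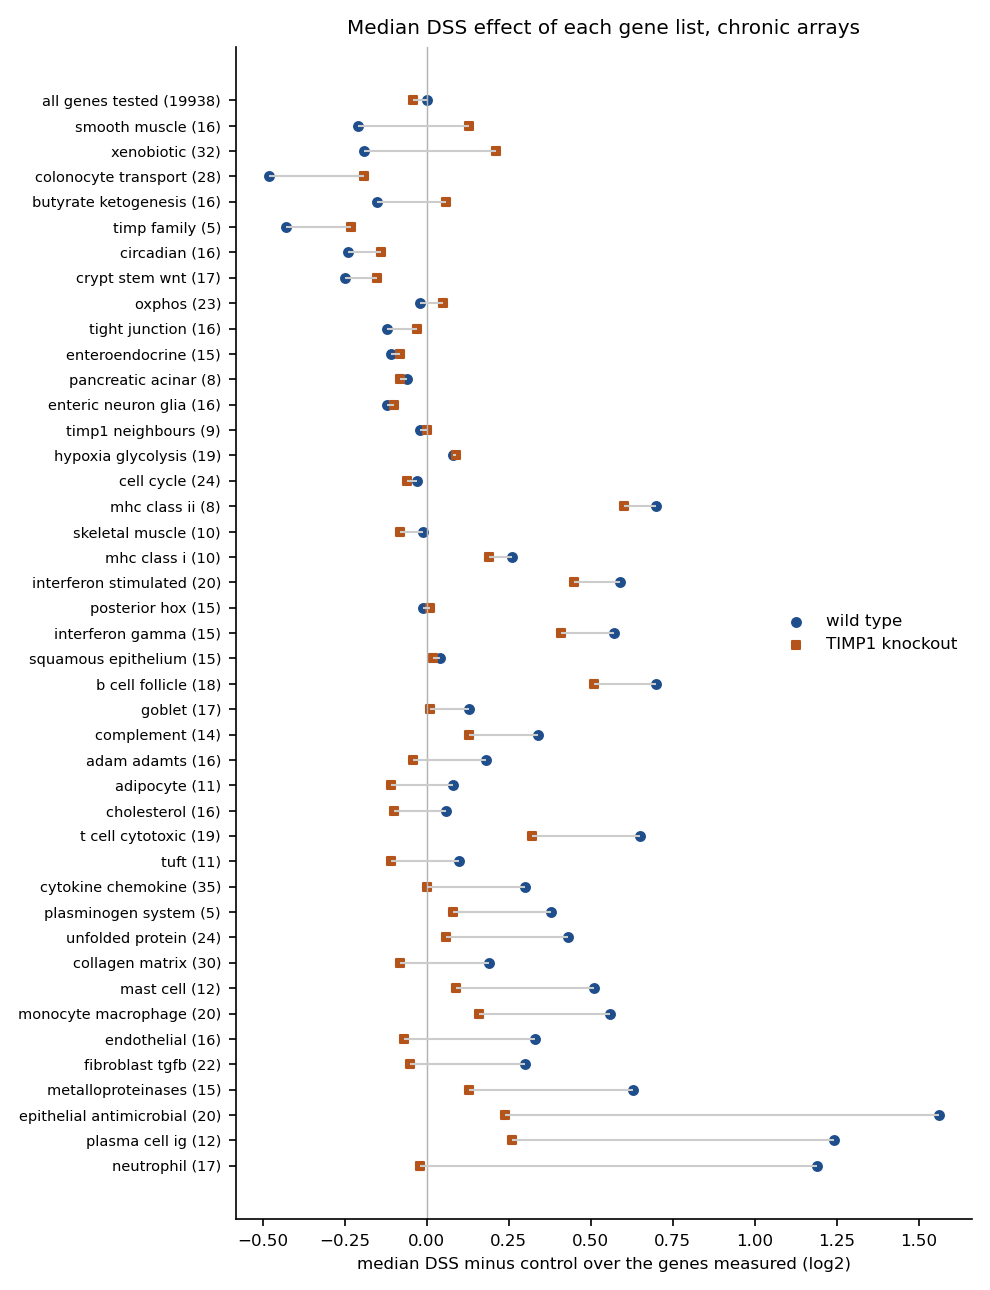
Median DSS minus control difference (log2) of each gene list in wild types (circles) and TIMP1 knockouts (squares), sorted by the median interaction, with the number of genes measured in parentheses and all genes tested at the top. The gap is widest for the neutrophil (1.19 against -0.02), plasma cell (1.24 against 0.26) and epithelial antimicrobial (1.56 against 0.24) lists.

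Genes that mark the position along the gut moved with the groups and with the animal series. Hoxd10, a patterning gene of the hind gut, read 10.26, 10.37 and 10.32 in the wild-type controls of series 11 and 8.14 and 8.27 in those of series 14. It read 7.54 to 7.92 in wild-type DSS, 7.61 to 8.79 in knockout controls and 7.82 to 8.98 in knockout DSS. The high values belonged to 3 controls alone, and within series 14 the groups overlapped. Its interaction was 1.96 ± 0.55 (limma, adjusted p = 0.0792), and those of Hoxd13 and Hoxd11 were 1.51 (adjusted p = 0.301) and 1.29 (adjusted p = 0.194). These were the largest of the 15 posterior genes measured, whose median interaction was -0.11, with 9 below 0 and 0 called, and 0.03 without knockout DSS 4. Hoxa13 ran the other way between the series, at 10.04 to 10.32 in the wild-type controls of series 11 and 10.55 to 10.57 in those of series 14, as did Hoxa9 and Hoxb9. Hoxb13, a gene of the distal colon, read 11.45 to 11.65 in all wild-type controls and 10.63 to 11.55 in knockout controls. It read 7.56, 6.83, 10.70, 10.51 and 8.80 in wild-type DSS and 10.69, 7.53, 6.90, 6.04 and 10.57 in knockout DSS, a split within both DSS groups.

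Fabp2, the fatty acid binding protein of enterocytes, ran the other way, at 7.6 to 7.96 in the wild-type controls of series 11, 9.90 and 10.34 in those of series 14, and 10.86 to 12.71 in knockout DSS. Knockout control 2 read 9.24 for Fabp2 and 10.27 for Hoxd13, against 11.07 to 11.74 and 8.35 to 8.79 in the other 4 knockout controls. Alpi, intestinal alkaline phosphatase, was 6.96 to 7.52 in wild-type controls and 7.34 to 8.72 in knockout controls, and reached 10.89 in wild-type and 10.96 in knockout DSS. The part of sampling position or animal series in the interactions of other genes was not tested. The clock gene Nr1d1 came near a call in another layout, with the wild-type controls of both series above wild-type DSS (1.54 ± 0.41, limma, adjusted p = 0.0659). It was 11.60 to 12.57 in wild-type controls, 10.52 to 11.41 in wild-type DSS and 10.81 to 11.56 in knockout DSS. In knockout controls it spread from 9.91 to 12.18. The labels give no hour of sampling.

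**Figure D4:**
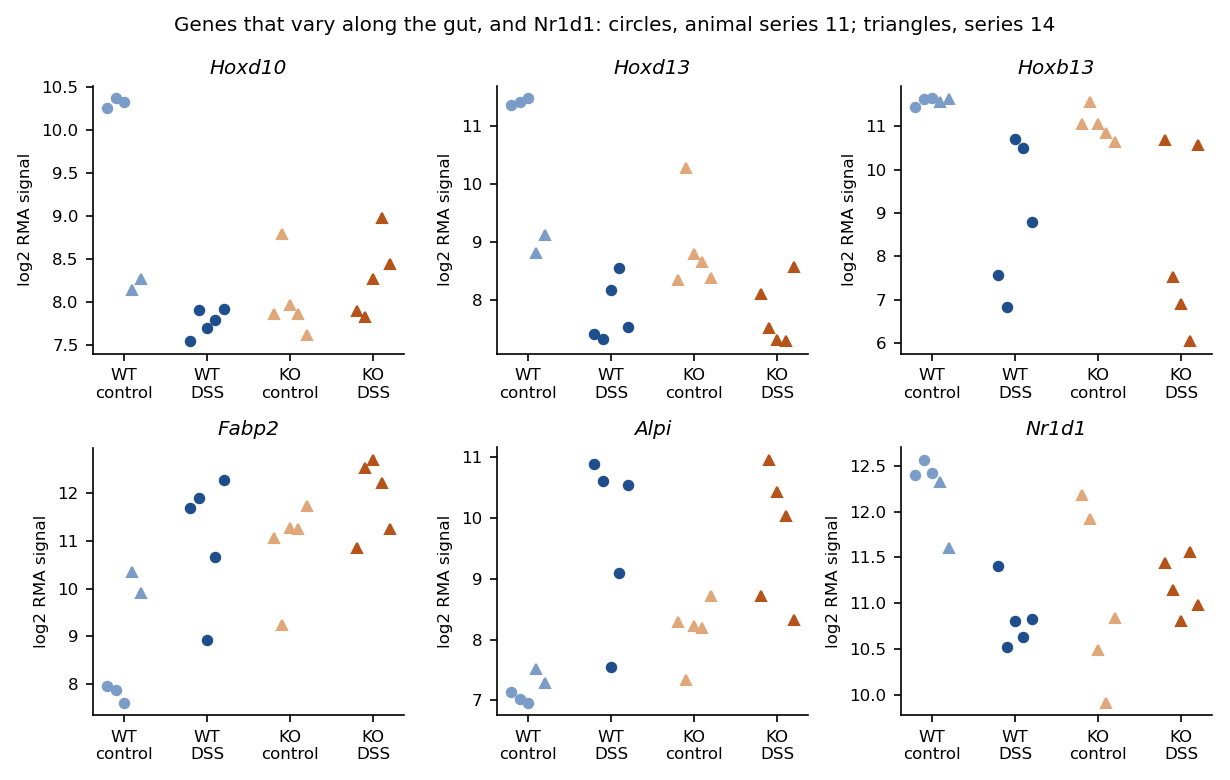
The log2 RMA signal of 5 genes that vary along the gut and of the clock gene Nr1d1 in each chronic array, by group (WT, wild type; KO, TIMP1 knockout), with circles for animal series 11 and triangles for series 14. The 3 wild-type controls of series 11 stand above the 2 of series 14 for Hoxd10 and Hoxd13 and below them for Fabp2, and Hoxb13 is split within both DSS groups.

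With the animal series in the model, 186 genes were called, 71 of the 84 among them, and all 84 kept their direction. The 84 were called on these same arrays, so the kept directions are a description. Without the 2 wild-type controls of series 14 the estimate is the same as with the series in the model, and 64 genes were called, 35 of the 84 among them. In the model with the series, Fkbp11 had an interaction of -0.84 (limma, adjusted p = 0.000704), Klhl9 of -0.48 (adjusted p = 0.00422) and Guf1 of 0.88 (adjusted p = 0.0169). Zfp935 (0.71, adjusted p = 0.0516), ND3 (0.66, adjusted p = 0.0514), Uqcc2 (-0.61, adjusted p = 0.0611) and Ms4a2 (-0.36, adjusted p = 0.0514) were no longer called. List medians became -1.1 for neutrophil, -1.15 for plasma cell, -0.39 for unfolded protein, 0.5 for smooth muscle and 0.11 for colonocyte transport genes.

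The acute phase gives the same interaction on other animals: 3 wild-type controls, 5 wild-type DSS, 3 knockout controls and 6 knockout DSS, with no array in common. All acute wild types carry plain numbers in their titles, all knockout controls prefixed numbers, and knockout DSS mice are of both kinds. Genotype and kind of number are thus partly mixed in the acute interaction as well. Acute knockout control 2 and knockout DSS 4 had Y-linked signal above Xist, and the other acute arrays did not. The acute interaction was called for 2444 genes, 12.3% of those tested. Of the 84 genes called in the chronic phase, 7 were called in the acute phase (8.33% of the chronic and 0.286% of the acute calls). Ctns, Ptcd3, a mitochondrial ribosome-associated protein, and 1 gene without an established symbol went the same way, and Arpc5l, Tomm5, Mogs, an ER glucosidase, and Eef2kmt, a methyltransferase of elongation factor 2, the opposite way. Ptcd3, Mogs and Eef2kmt are named here because of this overlap. Over all genes the correlation of the 2 interactions was 0.29 (Pearson, across 19938 genes, a description without a test), and 46 of the 84 called genes (54.8%) had the same sign in both phases, against 55.5% of all genes.

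The difference between the phases, chronic minus acute interaction, was called for 618 genes (3.1%) and for 29 of the 84. For Clk1 the interaction was 0.77 in the chronic and -0.42 in the acute phase, a difference of 1.19 ± 0.23 (limma, adjusted p = 0.00731). For Arpc5l it was -0.51 and 0.48, a difference of -0.99 ± 0.15 (adjusted p = 0.00234), and for Tomm5 -0.60 and 0.51 (adjusted p = 0.00598). Fkbp11 had an acute interaction of 0.13 (adjusted p = 0.616) and a difference of -0.89 ± 0.20 (adjusted p = 0.0177). Ctns had an interaction of 0.72 in both.

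The lists compared as follows. The neutrophil list had medians of -1.18 in the chronic and -1.54 in the acute interaction, and 0 of its genes differed between the phases by the test. The metalloproteinases had -0.42 and -0.94. For the unfolded protein genes the medians were -0.31 and 0.13, and 3 of 24 had a called difference, all lower in the chronic phase. The plasma cell list had -1.0 and -0.07, with 0 called differences. Smooth muscle had 0.35 and -0.45, with 2 of 16 called as higher in the chronic phase. The acute animals carry other kinds of number in their titles than series 11 and 14, so phase and series cannot be told apart in these differences.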

How the data were processed

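The deposited values are RMA log2 signals per transcript cluster, made by the authors; RMA is named per the submitters' processing notes, with no version, and the base of 2 was taken from RMA's usual output and the range of 3.03 to 14.96. Of 35511 clusters, 21789 had 1 gene symbol in the platform annotation, and the cluster with the highest mean was kept for each of 19938 genes. All 37 arrays entered 1 limma model (limma 3.58.1, R 4.3.3) with a mean for each of the 8 groups, which has 29 residual and 3.18 prior degrees of freedom. P values are two-sided and adjusted by Benjamini-Hochberg over all genes, and a gene was called at an adjusted p under 0.05. The model was also run on simulated data with independent normal noise and 1 spread per gene for all groups and arrays. That simulation cannot speak to unequal spread between groups or arrays, or to differences between series. Replicates are separate title codes, each taken as 1 animal.

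The genes named are the 15 largest called interactions in each direction, the 3 largest of each list and the Timp family; predicted genes and small RNAs were counted, not named. Members and lists were chosen with earlier results of these data known. Promoters are RefSeq's (GRCm38.p6). The alternatives are given in the closing section.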

Additional observations from a re-analysis of the deposited data

Results flagged for a closer look

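Arrays far from the other 4 of their group were looked for in 308 groups of values, with Dixon's test at the 95% level, at which chance marks about 1 in 20. The values were those of the 15 largest called genes in each direction, of the Timp family and of the list means. Genes named only from the lists were not included. There were 21 (6.82%). Wild-type DSS 3 was low for Zfp942 (7.33), Zfp944 (7.35), ND3 (11.16) and the colonocyte transport list (10.36), and high for Klhl9 (10.35) and Tcf3 (10.18). Knockout control 2 was high for Ctns (9.77) and low for Fkbp11 (7.14), Slc6a9 (9.91), the plasma cell list (9.06) and the mast cell list (6.62). Wild-type control 4 was high for Dmrta1 (6.92) and low for Uqcc2 (10.35) and the monocyte and macrophage list (7.86). Wild-type DSS 5 was low for Fkbp11 (7.38) and Timp3 (10.62). Knockout DSS 1 was high for Klhl9 (9.96), and knockout DSS 4 for the circadian list (9.46). Knockout control 1 was high for the pancreatic list (8.14). Wild-type control 1 was high for the mast cell list (6.71), and wild-type control 3 low for the squamous list (6.84).

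Among the 15 largest called genes in each direction, the chronic and acute interactions differed by the test of the difference in 9. Genes named only from the lists are not counted here. The chronic interaction was the higher by 1.05 in Zfp935, 1.19 in Clk1, 0.95 in Zfp825 and 0.97 in Cd46. The difference was -0.89 in Fkbp11, -1.14 in Uqcc2, -1.11 in Tomm5, -0.99 in Arpc5l and -0.55 in Klhl9.

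Outside the named genes, 279 of 12101 transcript clusters that the annotation does not list (2.31%) were called in the chronic interaction when all clusters were tested together, 223 of them higher. In that fit 275 of 21789 clusters with 1 symbol (1.26%) and 41 of 1621 with several (2.53%) were called. What these clusters measure was not tested.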

How the results depend on the processing

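The chronic interaction was called for 171 genes after cyclic loess of the deposited values, 146 without the 33.3% of genes with the lowest mean, 189 over all named clusters, 1832 with array weights, 510 with 1 variance weight per group, 186 with animal series as a covariate and 595 over all transcript clusters, an alternative added after the data were seen. A trended and robust prior gave 87 and the chronic arrays alone 73 (30 of the 84 among them). Sex as a covariate gave 84 (80 of the 84 among them), and leaving out the 2 acute arrays with Y-linked signal 82 (74 of the 84). On every chronic array Xist was above the Y-linked signal. Both settings thus left the chronic estimates as they were and acted only through the spread of the acute arrays, so they do not test sex in the chronic interaction. With 1 array left out, the counts ran from 5 to 422. The wild-type DSS effect was called for 2864 genes, 4953 with array weights, 4354 with group weights and 2030 to 2949 with 1 array left out. The knockout effect was called for 1583, 3692 with array weights and 893 to 1786 with 1 array left out. The acute interaction was called for 2444, 5000 with array weights, 536 on the acute arrays alone and 1308 with the series. The difference between phases was called for 618, 3166 with array weights, 1308 with group weights, 363 without the arrays with Y-linked signal and 337 to 966 with 1 array left out. Of the values of single named genes, H2-Oa reversed, from -0.21 to 0.03 without wild-type DSS 3 (range -0.4 to 0.03 with 1 array left out), and was called in neither. Why these counts moved was not tested. Signal over background is not given in the table. No paired analysis was possible because the titles give codes that occur once and no replicate number that groups share.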
